A study of Homo sapiens with 18 samples.

Results

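The comparison described here asks whether transcripts of human embryonic stem cells changed differently between 1.5 h and 3.5 h of actinomycin D when NAT10 was lowered. Its members were chosen by time alone. They are the 12 libraries taken at 1.5 h and 3.5 h, of 18 in the series, and no library from 0 h entered the comparison. The 12 libraries form 4 groups of 3, namely control at 1.5 h, control at 3.5 h, knockdown at 1.5 h and knockdown at 3.5 h. The line in every group is H1, a long-established line of human embryonic stem cells. Per the labels, the cells carried either a control shRNA or a NAT10 shRNA from a GFP-marked lentivirus (vector GV112). They were enriched for GFP and grown in TeSR-E8 with puromycin, so the control cells share the virus, the marker and the selection. Actinomycin D was given to all 12, at a dose not given in the sources used here. The sources do not say how many shRNAs or clones stand behind the libraries, or whether those of a group came from separate cultures. The p-values therefore measure only the spread between these libraries, which may be technical.

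Actinomycin D binds DNA and blocks RNA polymerases, so that a transcript that is no longer made declines at the pace of its own decay. Decay usually begins with shortening of the poly(A) tail and is steered by sequences in the 3' UTR, such as AU-rich elements and Pumilio sites. NAT10 is the RNA acetyltransferase that places N4-acetylcytidine on ribosomal RNA, on transfer RNA with its adaptor THUMPD1, and by many reports on messenger RNA. Many mRNAs of pluripotency factors and cell-cycle regulators are known for fast turnover in embryonic stem cells, while those of ribosomal proteins are long-lived.

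Libraries held 15037492 to 15519197 counts. Counts for NAT10 (ENSG00000135372, chromosome 11, 34105602 to 34147670, GRCh38) were 3278 to 3446 in the 6 control libraries and 270 to 302 in the 6 knockdown libraries, so every library matched its label. Spike-in RNA (ERCC transcripts, added after the RNA had been purified) took 0.148% to 0.163% of counts in control at 1.5 h and 0.173% to 0.237% at 3.5 h. In knockdown it took 0.219% to 0.295% at 1.5 h and 0.427% to 0.544% at 3.5 h. Each change was therefore read on both of 2 scales. TMM scaling sets a gene against the typical transcript of the same library, and ERCC scaling sets it against the spike-in. The percentage left is the ERCC-scaled level at 3.5 h, with the 1.5 h mean of that genotype set to 100%. It refers to polyadenylated RNA per spike-in and not to RNA per cell, since whether equal amounts of purified RNA met the spike-in is not known here. The late change is the log2 difference of 3.5 h minus 1.5 h, and the genotype difference is the late change in knockdown minus that in control. Above 0 thus means that a transcript fell less, or gained more, in knockdown. In these bulk samples fewer cells of a type and less RNA per cell cannot be told apart.

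Short sequences and promoters are given first, because the results return to them. The 3' UTR windows below, read from the GENCODE v29 transcripts on GRCh38, show the letters TGTANATA (the core bound by Pumilio proteins, searched on the mRNA strand and set in capitals), whose frequency differed between transcripts with a genotype difference above and below 0. SOX2, NGDN and VGF stood above 0, and MT1X and MT1E below it. SCN4A (2 sites) and ANP32B (1 site), named below, also hold the letters and stood below 0, and their windows are not shown.
SOX2, chr3:181714314-181714343, plus strand: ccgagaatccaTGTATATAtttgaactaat
NGDN, chr14:23478023-23478052, plus strand: gtgattatgggTGTACATAtttgtatattt
VGF, chr7:101162553-101162582, minus strand: cctttctctgtTGTAAATAcccctcacgga
MT1X, chr16:56684063-56684092, plus strand: gtgctctcagaTGTAAATAgagcaacctat
MT1E, chr16:56626985-56627014, plus strand: cttctcccagaTGTAAATAgaacaacctgc
The windows of MT1X and MT1E are near-identical, as the genes are paralogs, which is why reads of this family may be shared between its members.

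Among genes of at least 5 CPM (TMM-scaled counts, expressed relative to library size), metallothionein genes led the differences below 0. The promoters of 2 of them are given from RefSeq (GRCh38.p14), from 250 bases before to 50 bases after the start. Capitals mark the core of the metal response element, TGCACNC or TGCGCNC on either strand.
MT1X, chr16:56682220-56682519, plus strand: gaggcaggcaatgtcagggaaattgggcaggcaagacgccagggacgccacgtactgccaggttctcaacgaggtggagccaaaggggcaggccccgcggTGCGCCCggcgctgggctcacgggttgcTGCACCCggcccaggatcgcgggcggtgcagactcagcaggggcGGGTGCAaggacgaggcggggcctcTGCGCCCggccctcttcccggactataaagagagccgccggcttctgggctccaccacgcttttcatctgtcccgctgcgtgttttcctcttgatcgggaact
MT2A, chr16:56608334-56608633, plus strand: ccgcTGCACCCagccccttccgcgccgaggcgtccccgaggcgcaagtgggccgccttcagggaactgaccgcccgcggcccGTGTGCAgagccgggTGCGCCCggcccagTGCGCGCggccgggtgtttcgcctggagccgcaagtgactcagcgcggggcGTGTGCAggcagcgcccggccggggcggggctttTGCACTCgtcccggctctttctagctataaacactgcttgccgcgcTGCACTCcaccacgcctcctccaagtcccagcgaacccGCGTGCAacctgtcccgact
MT1X holds 4 such cores and MT2A holds 8. Of 35116 promoters in the same table, 29.6% held at least 1 core, 0.601% at least 4 and 0.0199% at least 8. A match describes the letters of the window and shows no binding.

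Between 1.5 h and 3.5 h the transcripts of control cells moved apart from each other, while those of knockdown cells declined in a much narrower band. Of 16225 genes tested, the genotype difference under TMM scaling was above 0 for 3421 (21.1%) and below 0 for 3461 (21.3%) by edgeR's quasi-likelihood F test (Benjamini-Hochberg adjusted p under 0.05). The genes above 0 were mostly ones that fell against the typical transcript in control. Of the 3421, 1578 (46.1%) were lower at 3.5 h in control and passed no test in knockdown, 1444 (42.2%) were lower in both genotypes, and 133 (3.89%) were lower in control and higher in knockdown. The genes below 0 were mostly ones that gained on the typical transcript in control. Of the 3461, 2014 (58.2%) were higher in control and passed no test in knockdown, and 1003 (29%) were higher in both. The control change enters the genotype difference and had the wider spread, so these shares are a description. Differences of at least 2-fold that passed numbered 551 above 0 (3.4%) and 617 below 0 (3.8%). An unadjusted p under 0.05 was reached by 7909 genes under TMM scaling and 7102 under ERCC scaling.

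Under ERCC scaling the whole distribution lay lower in knockdown. The genotype difference was above 0 for 260 genes (1.6%) and below 0 for 4756 (29.3%), with a median over all genes of -0.485, against -0.03 under TMM scaling. That shift of the median between the scalings applies to each gene, so values under ERCC scaling are best read relative to it. All 260 genes above 0 under ERCC scaling were also above 0 under TMM scaling, and all 3461 genes below 0 under TMM scaling were also below 0 under ERCC scaling. Of the 4756, 3946 (83.0%) passed no test in control and were lower in knockdown. Of the 260, 249 (95.8%) were lower in both genotypes and fell less in knockdown. Differences of at least 2-fold numbered 126 above 0 (0.777%) and 1856 below 0 (11.4%).

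Each genotype by itself shows the same picture. Under TMM scaling 5575 genes (34.4%) were higher and 4842 (29.8%) lower at 3.5 h than at 1.5 h in control, against 2745 (16.9%) and 2986 (18.4%) in knockdown. Under ERCC scaling 468 genes (2.88%) were higher and 7738 (47.7%) lower in control. In knockdown 15119 (93.2%) were lower and 0 were higher by edgeR. That number was 0 also at an unadjusted p under 0.05 and by DESeq2, and it was 4 with no filter on low counts. The median gene had 72.8% left in control and 50.5% left in knockdown.

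**Figure D1:**
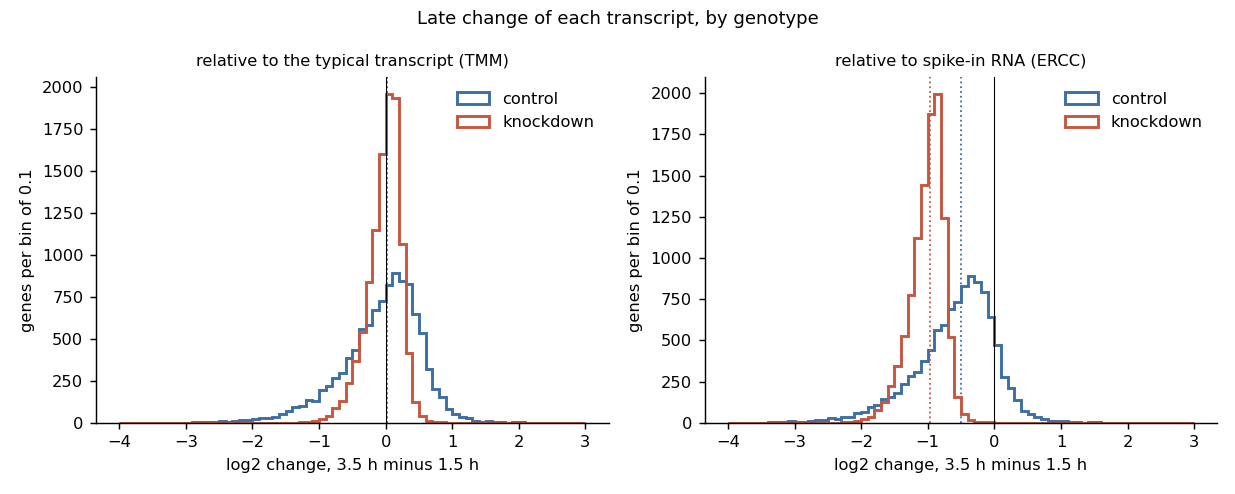
Distribution of the late change (log2, 3.5 h minus 1.5 h; x axis) over the 10571 genes with a mean of at least 5 CPM, in bins of 0.1 (y axis, genes per bin), for control and knockdown under TMM scaling (left) and ERCC scaling (right). Dotted lines mark the medians. The knockdown distribution is the narrower under both scalings, and under ERCC scaling it lies lower.

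The narrower spread in knockdown held in every pair of libraries. Over the 10571 genes with a mean of at least 5 CPM, the interquartile range of the late change was 0.71 in control and 0.31 in knockdown on the log2 scale under TMM scaling. Each of the 9 pairings of a 3.5 h with a 1.5 h library gave 0.69 to 0.75 in control, and each of the 9 in knockdown gave 0.31 to 0.35. The ranges did not overlap. Between libraries of the same group the interquartile range was 0.12 to 0.18, so the knockdown spread was still larger than that between replicates. Across genes, which are not independent replicates, the knockdown late change followed that of control with a slope of 0.30 (Pearson's r 0.72, Spearman's rho 0.69). The 2 genotypes share no library.

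Fast and slow transcripts thus ended closer together in knockdown. The 74 genes that fell most in control (a late change under -2 under TMM scaling) had a median of 14.7% left in control and 31.1% left in knockdown. The 1361 genes with a control late change between -1 and -0.5 had 43.0% and 42.9% left. The 4028 genes between 0 and 0.5 had 82.4% left in control and 54.6% in knockdown. The 26 genes that gained most in control (over 1.5) had 225% of their 1.5 h level in control and 55.7% in knockdown. The groups were formed on the control value, which also enters the genotype difference, so they are given as a description.

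**Figure D2:**
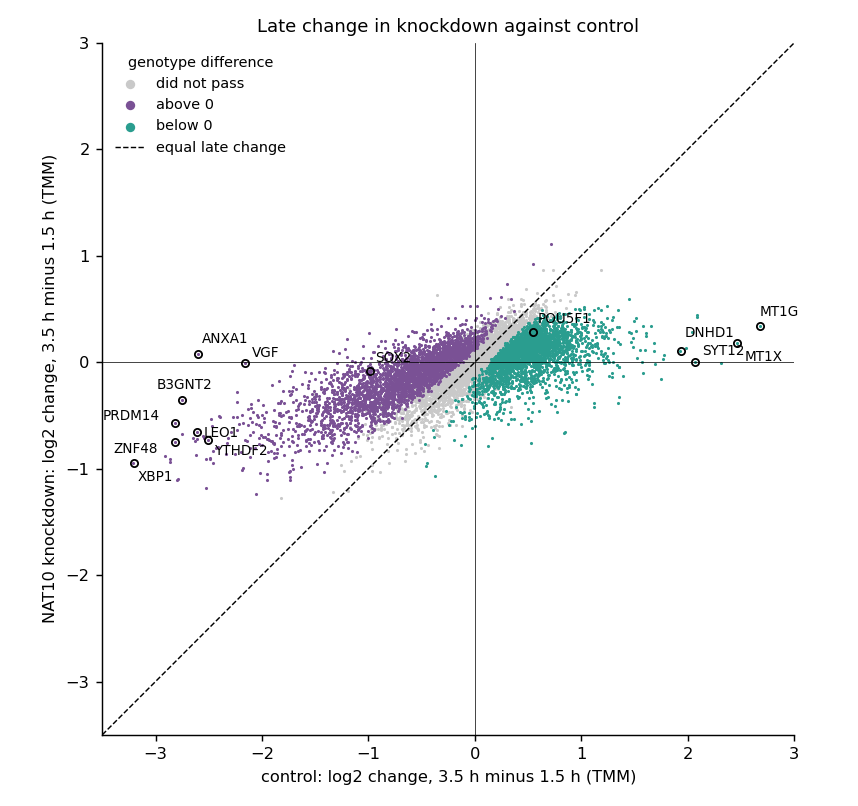
Late change in NAT10 knockdown (y axis) against late change in control (x axis), log2 under TMM scaling, for the 10571 genes with a mean of at least 5 CPM. Colour marks genes whose genotype difference passed the test above 0 or below 0, the dashed line marks equal change, and circles mark named genes. The cloud is flatter than the dashed line, with ANXA1 and VGF near 0 in knockdown at the left and the metallothioneins near 0 in knockdown at the right.

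The direction of the difference between genotypes turned between the 2 times for some genes. Under TMM scaling 32.5% of genes stood higher and 30.4% lower in knockdown than in control at 1.5 h, and 35.6% and 33.1% at 3.5 h. Under ERCC scaling these shares were 8.78% and 54.6% at 1.5 h, and 5.07% and 74.3% at 3.5 h. Under TMM scaling 342 genes went from higher in knockdown to lower, and 561 from lower to higher, each time by its own test. Under ERCC scaling 189 and 31 genes did so.

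All polyadenylated RNA together gave the same order with less certainty. Gene counts per spike-in count went from 644 ± 29.8 to 493 ± 78.3 in control (76.6% of the 1.5 h mean) and from 403 ± 59.5 to 216 ± 28.5 in knockdown (53.5%; SD, n = 3 each). The genotype difference was -0.51 on the log2 scale. A two-sided exact permutation test over all 400 assignments gave p = 0.05, which did not pass under 0.05. Leaving out control 3.5 h replicate 1 gave -0.61 with an exact permutation p = 0.02, and leaving out knockdown 1.5 h replicate 2 gave -0.63 with p = 0.015. The other 10 omissions gave -0.57 to -0.39, with permutation p-values of 0.06 to 0.11.

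The count of genes below 0 under ERCC scaling rests on single libraries. It was 2683 without control 1.5 h replicate 2, 2784 without control 3.5 h replicate 2, 2886 without knockdown 1.5 h replicate 1, 2684 without knockdown 1.5 h replicate 3 and 2803 without knockdown 3.5 h replicate 3, and 7203 without knockdown 1.5 h replicate 2. Under TMM scaling the count below 0 was 1911 (with 3062 above) in a fit to all 18 libraries and 2293 (with 4008 above) with no filter on low counts. That puts 61.6% and 63.6% of the calls above 0, against 49.7% in the fit reported here.

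The genes above 0 with the largest differences were transcripts that fell steeply in control cells and had more left in knockdown cells. ANXA1 (ENSG00000135046, chromosome 9, 73151757 to 73170393) encodes annexin A1, a calcium-dependent phospholipid-binding protein. It had 8.56%, 11.9% and 14.1% left in the 3 control libraries at 3.5 h, and 55.8%, 58.0% and 45.4% in the knockdown libraries. Every knockdown library lay above every control library. Lack of overlap between the library differences of the genotypes was a condition for choosing the genes of largest difference, so it adds no support. Of all genes, 36.0% did not overlap under TMM scaling and 21.9% under ERCC scaling. Its level went from 53.8 ± 1.89 to 8.87 ± 1.93 CPM in control and from 537 ± 40.9 to 567 ± 9.40 CPM in knockdown (SD, n = 3 each). The genotype difference was 2.68 ± 0.103 (SE) under TMM scaling (edgeR adjusted p = 1.85e-19) and 2.21 ± 0.25 under ERCC scaling (edgeR adjusted p = 3.42e-15). ANXA1 was also higher in knockdown in the 0 h libraries, by 2.69 on the log2 scale under TMM scaling (edgeR adjusted p = 5.93e-07).

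B3GNT2 (chromosome 2, 62196113 to 62224731) extends poly-N-acetyllactosamine chains on glycoproteins. Under TMM scaling it started at the same level in both genotypes, 16.3 ± 2.16 CPM in control and 16.3 ± 0.751 CPM in knockdown at 1.5 h (SD, n = 3 each). Knockdown libraries held fewer gene counts per spike-in count at 1.5 h (403 against 644), so B3GNT2 stood lower there per spike-in. At 3.5 h it had 8.99%, 12.3% and 9.66% left in control and 36.7%, 46.7% and 35.3% in knockdown. The genotype difference was 2.4 ± 0.175 under TMM scaling (edgeR adjusted p = 1.41e-15). Its 3' UTR holds 1 AU-rich nonamer TTATTTATT, tgcctgtgtttTTATTTATTgttcagatca at chr2:62224382-62224411 on the plus strand (nonamer in capitals).

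XBP1 (chromosome 22, 28794555 to 28800597), the transcription factor of the unfolded protein response, fell furthest in control among the genes named here. It had 5.84%, 9.29% and 7.77% left in control and 27.5%, 30.5% and 21.4% in knockdown. Its genotype difference was 2.26 ± 0.091 under TMM scaling (edgeR adjusted p = 1.57e-24) and 1.80 ± 0.249 under ERCC scaling. VGF (chromosome 7, 101162509 to 101165593), a neuropeptide precursor whose 3' UTR site is shown above, went from 88.7 ± 5.46 to 19.9 ± 0.63 CPM in control and stayed at 95.5 ± 5.31 and 95.1 ± 7.05 CPM in knockdown. It had 13.5%, 18.8% and 14.8% left in control and 58.6%, 51.2% and 42.4% in knockdown.

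The other genes of this group, all protein-coding, had the same pattern and were likewise chosen for no overlap between genotypes. NGDN, which encodes the nucleolar protein neuroguidin, had 10.3 ± 2.06% left in control and 31.6 ± 3.92% in knockdown (SD, n = 3 each). LEO1, a subunit of the PAF1 transcription elongation complex, had 11.3 ± 1.35% and 32.0 ± 3.75% left. RIOX1, a ribosomal oxygenase, had 9.57 ± 2.36% and 26.7 ± 2.5% left. TENT5B, of the noncanonical poly(A) polymerase family, had 9.43 ± 3.72% and 27.3 ± 2.2%, and the zinc finger gene ZNF48 had 9.79 ± 0.94% and 30 ± 3.9%. Their genotype differences under TMM scaling were 1.95 (RIOX1) to 2.07 (NGDN).

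**Figure D3:**
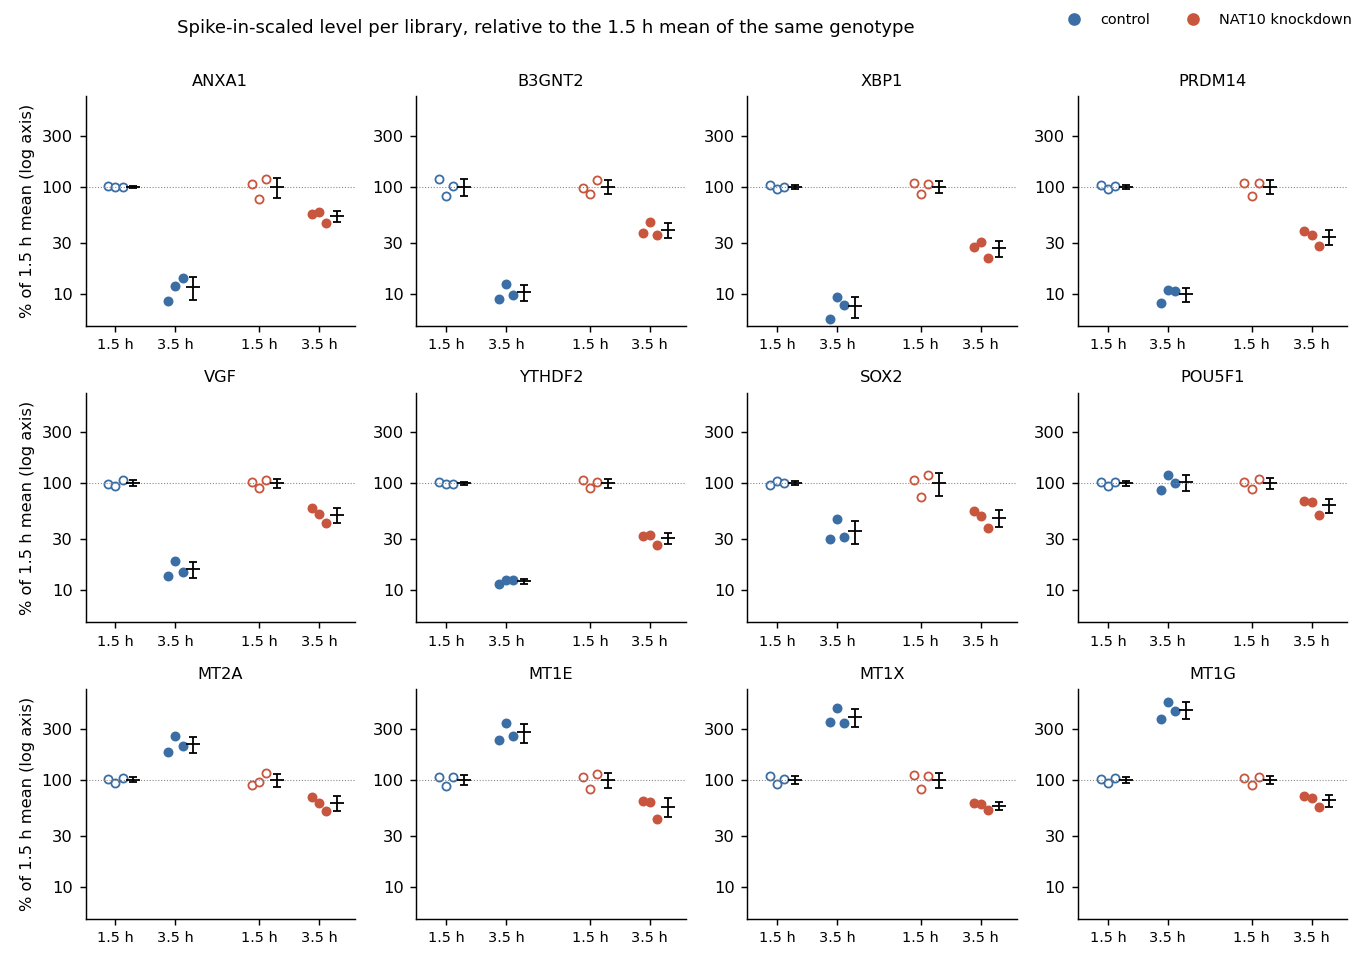
ERCC-scaled level of 12 genes in each library, as a percentage of the 1.5 h mean of the same genotype (y axis, log scale), at 1.5 h (open points) and 3.5 h (filled points) in control (blue) and knockdown (red); n = 3 each, and black bars give mean and SD. From ANXA1 to YTHDF2 the control points at 3.5 h lie below the knockdown points, and from POU5F1 to MT1G they lie above them.

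Core pluripotency transcripts divided. Of 36 listed genes, all tested, 18 stood above 0 and 2 below under TMM scaling, 50% and 5.56% against 21.1% and 21.3% of all genes, with a median difference of 0.26. Under ERCC scaling 3 stood above (8.33%) and 2 below (5.56%), against 1.6% and 29.3% of all genes. The median there was -0.18 (all genes -0.485). PRDM14 (chromosome 8, 70051651 to 70071693), a repressor that guards the pluripotent state, had 8.15%, 10.9% and 10.7% left in control and 38.3%, 35.7% and 28.1% in knockdown. Its difference was 2.24 ± 0.113 under TMM scaling (edgeR adjusted p = 5.22e-21) and 1.79 ± 0.262 under ERCC scaling. ZFP42 (REX1), a zinc finger marker of pluripotent cells, had 15.5 ± 2.67% left in control and 34.0 ± 4.64% in knockdown, a difference of 1.61 under TMM and 1.14 under ERCC scaling, both past the test.

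SOX2 (chromosome 3, 181711924 to 181714436), a core pluripotency factor, had 29.9%, 46.0% and 31.3% left in control and 55.3%, 49.0% and 38.3% in knockdown. These overlapped, and under ERCC scaling the difference was 0.42 ± 0.252 and did not pass (edgeR adjusted p = 0.18). Relative to the typical transcript SOX2 went from 25.7 ± 2.26 to 13 ± 1.34 CPM in control and from 37.1 ± 3.74 to 35.0 ± 2.72 CPM in knockdown (SD, n = 3 each), a difference of 0.90 ± 0.117 (edgeR adjusted p = 2.12e-08). Under TMM scaling SOX2 was lower in knockdown at 0 h, by -0.44 on the log2 scale (edgeR adjusted p = 0.00306), and higher at 1.5 h and 3.5 h, by 0.53 and 1.43. Knockdown libraries held fewer gene counts per spike-in count (403 against 644 at 1.5 h), so these differences are lower under ERCC scaling.

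POU5F1 (OCT4; chromosome 6, 31164337 to 31180731) went the other way. It had 86.3%, 120% and 99.5% left in control and 68.6%, 66.7% and 50.7% in knockdown, with no overlap. The difference was -0.26 ± 0.048 under TMM scaling (edgeR adjusted p = 2.03e-05) and -0.72 ± 0.234 under ERCC scaling (edgeR adjusted p = 0.0132). Under TMM scaling it did not pass in the fit to all 18 libraries (edgeR adjusted p = 0.0514). Under ERCC scaling it did not pass without control 1.5 h replicate 2, control 3.5 h replicate 2 or knockdown 3.5 h replicate 3 (-0.68, -0.58 and -0.59, edgeR adjusted p = 0.0578, 0.0503 and 0.0532). NANOG had 52.1 ± 4.39% left in control and 43.7 ± 7.32% in knockdown (SD, n = 3 each), and its differences, 0.20 under TMM and -0.25 under ERCC scaling, did not pass. POU5F1 and NANOG have processed copies elsewhere in the genome, so their counts may be shared. The growth factor gene FGF2, which sustains pluripotency in culture, had 27.6 ± 4.68% left in control and 41.4 ± 4.49% in knockdown, a difference of 1.06 under TMM scaling that passed. Under ERCC scaling its difference of 0.59 passed too (edgeR adjusted p = 0.0465), but it failed in 9 of the 12 fits that left out a library, passing only without control 3.5 h replicate 2, knockdown 1.5 h replicate 3 or knockdown 3.5 h replicate 3.

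Of 8 tested genes of the naive state, 0 stood above 0 and 3 below (37.5%) under both scalings by edgeR. Of all genes, 21.3% stood below under TMM and 29.3% under ERCC scaling. ESRRB, a nuclear receptor of that state, had 320 ± 168% left in control and 38.6 ± 12% in knockdown, at a mean of only 0.453 CPM. TFCP2L1, a transcription factor of the same network, had 97.5 ± 14.4% and 51.4 ± 7.47% left (SD, n = 3 each), a difference of -0.46 under TMM scaling.

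NAT10 and its partner did not move together. NAT10 itself had 77.9 ± 12.1% left in control and 53.3 ± 7.9% in knockdown, and its difference was -0.09 ± 0.081 under TMM (edgeR adjusted p = 0.404) and -0.55 ± 0.245 under ERCC scaling (edgeR adjusted p = 0.0711). The latter passed without control 3.5 h replicate 1 (-0.66, edgeR adjusted p = 0.0224) or without knockdown 1.5 h replicate 2 (-0.64, edgeR adjusted p = 0.0186), and with all 12 libraries by DESeq2's Wald test (-0.55, adjusted p = 0.0412). THUMPD1, the adaptor for acetylation of transfer RNA, had 32.5 ± 4.08% left in control and 35.9 ± 5.38% in knockdown, a difference of 0.60 under TMM scaling that passed and of 0.15 under ERCC scaling that did not. Among 33 genes of RNA modification 19 stood above 0 (57.6%) and 3 below (9.09%) under TMM scaling, with a median of 0.29. Under ERCC scaling the median was -0.19, with 1 above (3.03%) and 4 below (12.1%), against 1.6% and 29.3% of all genes. YTHDF2 (chromosome 1, 28736621 to 28769775), the m6A reader that directs mRNA to decay, had 11.4%, 12.5% and 12.5% left in control and 32.3%, 32.9% and 26.7% in knockdown. Its difference of 1.78 ± 0.104 under TMM and 1.33 ± 0.253 under ERCC scaling passed on both (edgeR adjusted p = 1.04e-18 and 1.07e-05). TRMT6, a subunit of the transfer RNA m1A methyltransferase, had means of 31% and 45.5% left. It passed under TMM scaling (1.01), and under ERCC scaling (0.55) only without knockdown 1.5 h replicate 3 or knockdown 3.5 h replicate 3. The 3 members below 0 under TMM scaling, named after their values were seen, were IGF2BP1, IGF2BP2 and IGF2BP3. They encode RNA-binding proteins that stabilise their target mRNAs, and had 71.6%, 88.8% and 89.2% left in control and 44.8%, 50.8% and 56.1% in knockdown (means of 3).

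Genes of ribosome assembly and of the ribosome itself had list medians on opposite sides of 0 under TMM scaling. Of 56 ribosome biogenesis genes 38 stood above 0 (67.9%) and 3 below (5.36%) under TMM scaling, with a median of 0.36. The median was -0.11 under ERCC scaling, with 6 above (10.7%) and 3 below (5.36%), against 1.6% and 29.3% of all genes. The typical member had 49.0% left in both genotypes, where the typical gene had 72.8% in control and 50.5% in knockdown. UTP14A, of the small-subunit processome, had 21.2 ± 4.01% left in control and 47.9 ± 6.34% in knockdown, and GNL3 (nucleostemin), a nucleolar GTPase, had 26.8 ± 5.39% and 42.6 ± 4.85% (SD, n = 3 each). Both passed under both scalings, but GNL3 under ERCC scaling (0.67) did not without control 1.5 h replicate 1, control 3.5 h replicate 3 or knockdown 3.5 h replicate 2, nor in the fit to all 18 libraries (edgeR adjusted p = 0.0637). Of 84 cytosolic ribosomal protein genes, 2 stood above 0 (2.38%) and 31 below (36.9%) under TMM scaling, against 21.1% and 21.3% of all genes, with a narrow median of -0.11. Under ERCC scaling 0 stood above and 41 below (48.8%), against 1.6% and 29.3% of all genes. The counts below 0 were not stable: in the fit to all 18 libraries they were 3 (TMM) and 9 (ERCC), and with no filter 10 and 13. The median under TMM scaling was -0.05 in the former fit and -0.02 in the latter. The typical member had 96.1% left in control and 64.0% in knockdown. RPL3, of the large subunit, had 108 ± 16.8% and 59.5 ± 6.62%. Ribosomal protein genes have many processed copies, so their counts may be shared. Of 77 genes of mitochondrial ribosomal proteins 34 stood above 0 (44.2%) and 5 below (6.49%) under TMM scaling, with a median of 0.23. Under ERCC scaling 0 stood above and 7 below (9.09%, against 29.3% of all genes), with a median of -0.24. MRPL1 had 36.1 ± 5.21% left in control and 54.1 ± 10.1% in knockdown, and MRPS30 had 29.4 ± 3.93% and 43.3 ± 5.04%.

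Nuclear oxidative phosphorylation genes and glycolysis genes had list medians below 0 under TMM scaling, though their counts of calls depended on the fit. Under ERCC scaling their medians were -0.60 and -0.66, against -0.485 for all genes. Of 67 nuclear genes of oxidative phosphorylation 3 stood above 0 (4.48%) and 32 below (47.8%) under TMM scaling, with a median of -0.15. Of all genes, 21.1% and 21.3% did so. Under ERCC scaling 0 stood above and 40 below (59.7%), against 1.6% and 29.3% of all genes. In the fit to all 18 libraries 4 (TMM) and 14 (ERCC) stood below, and with no filter 7 and 24. The TMM median was -0.09 in the former fit and -0.06 in the latter. COX4I1, a subunit of cytochrome c oxidase, had 98.2 ± 17.2% left in control and 58.7 ± 8.15% in knockdown. ATP5MC2, of the ATP synthase c ring, had 113 ± 24.4% and 59.4 ± 7.07%. Of 25 glycolysis genes 4 stood above 0 (16%) and 15 below (60%) under TMM scaling, with a median of -0.19. Under ERCC scaling 0 stood above and 17 below (68%). In the fit to all 18 libraries 5 (TMM) and 10 (ERCC) stood below, and with no filter 8 and 13. The TMM median was -0.14 in the former fit and -0.11 in the latter. HK1, the housekeeping hexokinase, had 87.7 ± 12.5% and 49.8 ± 7.44% left. The glucose transporter gene SLC2A1 differed from them, with 40.4 ± 7.1% and 41.3 ± 6.68% left and a difference of 0.49 under TMM scaling that passed, though of 0.03 under ERCC scaling. Among the 13 genes of mitochondrial DNA tested, 5 stood above 0 (38.5%) and 4 below (30.8%) under TMM scaling, with a median of 0.04. Under ERCC scaling 0 stood above and 5 below (38.5%). MT-ND2, of complex I, had 59.8 ± 11.4% left in control and 60.4 ± 7.2% in knockdown, and MT-ND6, of the same complex but read from the opposite strand, had 105 ± 23.1% and 44.8 ± 5.97%. The strand setting of the counting is not given in the sources used here.

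Lists of cell division genes had somewhat less left in control than all genes, with medians of 61.1% (mitosis) and 63.3% (DNA replication) against 72.8%. Not all members fell: 9 mitosis and 13 DNA replication genes were higher at 3.5 h in control under TMM scaling. Of 45 mitosis genes 22 stood above 0 (48.9%) and 3 below (6.67%) under TMM scaling, with a median of 0.14. Of 46 DNA replication genes 22 (47.8%) and 6 (13%) did so, with a median of 0.17. Under ERCC scaling 4 (8.89%) and 5 (11.1%) mitosis genes and 4 (8.7%) and 8 (17.4%) DNA replication genes stood above and below. Of all genes, 1.6% and 29.3% did so. The ERCC medians were -0.32 and -0.30, against -0.485 for all genes. PLK1 (chromosome 16, 23677656 to 23690367), the kinase that drives entry into mitosis, had 14.9%, 19.9% and 18.9% left in control and 41.9%, 37.6% and 30.7% in knockdown. Its difference was 1.49 ± 0.085 under TMM and 1.04 ± 0.244 under ERCC scaling, and both passed. The kinetochore gene NDC80 had 23.5 ± 4.37% and 42.5 ± 3.32% left. RFC3, a subunit of the clamp loader of replication, had 31.5 ± 4.85% and 51.3 ± 6.71%. Of 56 chromatin regulators 27 stood above 0 (48.2%) and 9 below (16.1%) under TMM scaling, with a median of 0.18. Under ERCC scaling 2 stood above (3.57%) and 11 below (19.6%), against 1.6% and 29.3% of all genes. The median was -0.27, against -0.485 for all genes. CREBBP, a histone acetyltransferase, had 20.9 ± 4.89% left in control and 34.5 ± 5.05% in knockdown, and NSD1, a histone H3 lysine methyltransferase, had 25.5 ± 3.69% and 33.5 ± 4.01%. Of 456 zinc finger genes 141 stood above 0 (30.9%) and 57 below (12.5%), with a TMM median of 0.16. Under ERCC scaling 16 stood above and 82 below, with a median of -0.30. The share above was larger and the share below smaller than in all genes (1.6% and 29.3%), whose median was -0.485.

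Transcripts of RNA processing and stress were mixed. Among 36 SR proteins and CLK kinases, which choose splice sites, 22 stood above 0 (61.1%) and 3 below under TMM scaling. SRSF6 had 38.5 ± 6.71% left in control and 43.9 ± 6.5% in knockdown. Among 70 genes of the mRNA decay machinery 26 stood above 0 (37.1%) and 11 below (15.7%), and EXOSC9, of the exosome, had 25.7 ± 2.3% and 37.4 ± 3.64% left. Under ERCC scaling these lists had 0 members above and 5 (13.9%) and 15 (21.4%) below, where 1.6% and 29.3% of all genes stood above and below. HSPA8 (chromosome 11, 123057489 to 123063230), the constitutive HSP70 chaperone, had 16.7%, 22.9% and 19.6% left in control and 32.6%, 33.5% and 27.7% in knockdown. Its difference of 1.13 under TMM and 0.66 ± 0.234 under ERCC scaling passed (edgeR adjusted p = 6.18e-25 and 0.0218), the latter not without control 1.5 h replicate 1, control 1.5 h replicate 3, control 3.5 h replicate 3, knockdown 1.5 h replicate 1 or knockdown 3.5 h replicate 2, nor in the fit to all 18 libraries (edgeR adjusted p = 0.0593). In the integrated stress and unfolded protein response 13 of 31 stood above 0 (41.9%), XBP1 among them, and 11 below (35.5%) under TMM scaling. By ERCC scaling 2 stood above (6.45%) and 12 below (38.7%). ATF4, the effector of the integrated stress response, was below, with 97.0 ± 16.1% left in control and 42.9 ± 5.06% in knockdown. Of 35 p53 targets 11 stood above and 4 below under TMM scaling. That was a larger share above and a smaller share below than in all genes (21.1% and 21.3%). Under ERCC scaling 0 stood above and 7 below, again a smaller share below than the 29.3% of all genes. TP53I3 had 45.0 ± 5.1% and 59.9 ± 7.2% left, and PMAIP1 (NOXA), which promotes apoptosis, had 129 ± 24.4% and 56.8 ± 7.81%.

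Metallothioneins gave the widest separation below 0. They bind zinc and copper and are known to be induced through metal response elements, whose core letters are marked above for 2 of them. Whether induction had a part in these values was not tested. Of 9 tested genes of the zinc response, 0 stood above 0 and 7 below under TMM scaling (77.8%), and all 9 stood below under ERCC scaling. In the fit to all 18 libraries 4 stood below under TMM and 6 under ERCC scaling, with medians of -1.58 and -2.12. MT1G (ENSG00000125144, chromosome 16, 56666731 to 56668065) reached 373%, 533% and 438% of its 1.5 h mean in the control libraries and 70.3%, 67.4% and 55.0% in the knockdown libraries. The gap between genotypes was wider than the whole spread within either, for a gene chosen for no overlap between them. Its level went from 25.8 ± 1.0 to 165 ± 3.75 CPM in control and from 41.5 ± 2.43 to 52.4 ± 1.42 CPM in knockdown (SD, n = 3 each). The difference was -2.34 ± 0.076 under TMM (edgeR adjusted p = 6.42e-28) and -2.80 ± 0.246 under ERCC scaling (edgeR adjusted p = 7.1e-26).

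MT1X (chromosome 16, 56682424 to 56684196) went from 3.79 ± 0.169 to 20.9 ± 1.64 CPM in control and from 27.4 ± 1.68 to 31.0 ± 1.94 CPM in knockdown. It thus started higher in knockdown, the reverse of MT2A, which went from 65.8 ± 2.78 to 201 ± 2.72 CPM in control and from 12.5 ± 1.69 to 14.8 ± 1.08 CPM in knockdown. At 3.5 h MT1X stood at 346%, 469% and 342% of its 1.5 h mean in control and at 60.6%, 58.7% and 51.9% in knockdown. MT2A stood at 183%, 254% and 206% in control and at 69.6%, 60.9% and 50.6% in knockdown. The control libraries lay above 100% and the knockdown libraries below it for both genes. MT1E, MT1F, MT1H and MT1M had the same order, with means of 277%, 215%, 300% and 351% in control and 55.6%, 61.5%, 68.8% and 52.4% in knockdown. The call for MT1M (TMM) did not pass in the fit to all 18 libraries (edgeR adjusted p = 0.079). The zinc exporter gene SLC30A1 and the metal-sensing factor gene MTF1 did not pass under TMM scaling, at -0.28 and -0.40.

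Outside that family large differences below 0 also belonged to transcripts whose mean level was higher at 3.5 h than at 1.5 h in control. SYT12, of the synaptotagmin family, stood at 294 ± 64.8% of its 1.5 h mean in control and at 50.9 ± 8.9% in knockdown, and DNHD1, with a dynein heavy chain domain, at 267 ± 44.5% and 54.6 ± 10.7% (SD, n = 3 each). MEDAG, known from adipocyte differentiation, stood at 286 ± 49.2% and 61.9 ± 8.83%. The Rab GTPase gene RAB37 stood at 237 ± 32.6% and 52.1 ± 10.4%, and the muscle sodium channel gene SCN4A at 178 ± 36.3% and 38.5 ± 4.87%. They too were chosen for no overlap between genotypes. These 5 genes had means of 5.84 to 12.7 CPM over the 12 libraries.

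Replication-type histone genes, most of whose mRNAs lack a poly(A) tail and are poorly caught by oligo(dT), passed the filter for 11 of 59 genes. Of these 0 stood above 0 and 3 below (27.3%) under both scalings by edgeR. That is near the share of all genes below 0, 21.3% under TMM and 29.3% under ERCC scaling. H2AC6 reached 280%, 391% and 339% of its 1.5 h mean in control and 52.5%, 58.6% and 45.1% in knockdown, a difference of -2.20 under TMM scaling (edgeR adjusted p = 2.94e-11). ANP32B, of the acidic nuclear phosphoprotein family, had 84.2%, 114% and 89.4% left in control and 60.3%, 59.4% and 47.0% in knockdown. Its difference was -0.31 ± 0.059 under TMM and -0.79 ± 0.236 under ERCC scaling, and both passed (edgeR adjusted p = 2.15e-05 and 0.00682).

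For the lists of the text with 0 members above 0, 0 members also reached an unadjusted p under 0.05 in that direction, except 1 of the mRNA decay machinery and 2 of the mitochondrial ribosomal proteins, both under ERCC scaling. DESeq2's Wald test called 0 in that direction for each of them but the mitochondrial ribosomal proteins, for which it called 1 under ERCC scaling. The metallothionein list had 7 members below 0 by DESeq2 under both scalings. Other counts below 0 under TMM scaling were lower in the fit to all 18 libraries as well, with 1 chromatin regulator, 34 zinc finger genes, 5 of the mRNA decay machinery and 5 of the stress responses (edgeR).

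**Figure D4:**
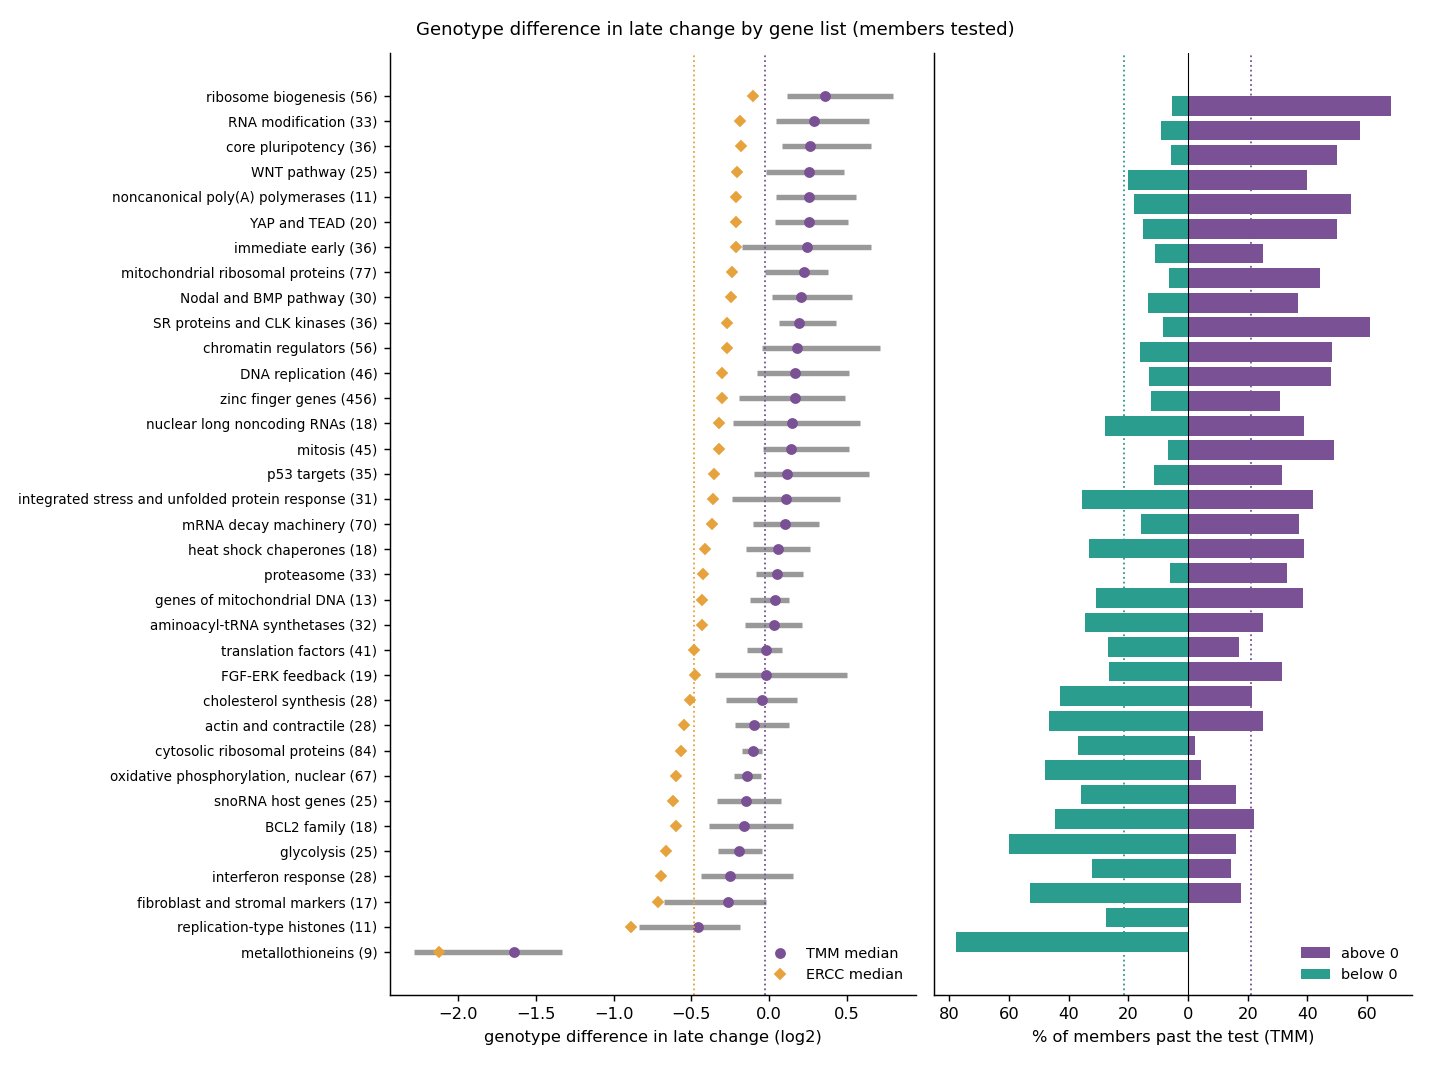
Genotype difference in late change for the gene lists with at least 9 tested members (number in brackets). Left, median under TMM scaling (circles, grey bar from the lower to the upper quartile) and ERCC scaling (diamonds), with dotted lines at the medians of all genes; right, share of members past the test above 0 and below 0 under TMM scaling, with dotted lines at 21.1% and 21.3%. Ribosome biogenesis lies highest and metallothioneins lowest, and the medians above 0 under TMM scaling are below 0 under ERCC scaling.

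Summed markers of fibroblast, neural, endoderm and trophoblast cells were higher in knockdown at both times, while those of mesoderm changed direction. The summed level of 20 fibroblast and stromal genes was 2313 to 2775 CPM in the 6 control libraries and 4378 to 4686 CPM in the 6 knockdown libraries. That of 25 neural genes was 474 to 613 CPM and 1132 to 1446 CPM. The 15 mesoderm genes lay between 93.5 and 146 CPM in all 12 libraries and 3 of them were at 0 throughout. The 11 trophoblast genes lay at 2.52 to 4.8 CPM in control and 8.51 to 11 CPM in knockdown, with 4 at 0 throughout. The 36 core pluripotency genes summed to 14240 to 16740 CPM in all 12 libraries, so markers of the labelled cell type were present in each. Of 17 fibroblast genes tested for the late change 3 stood above 0 (17.6%) and 9 below (52.9%) under TMM scaling, against 21.1% and 21.3% of all genes. Under ERCC scaling 0 stood above and 10 below (58.8%), against 1.6% and 29.3% of all genes. Among the 9 were COL1A2, with 105 ± 17.6% left in control and 46.6 ± 6.46% in knockdown, and PDGFRB, with 172 ± 33.3% and 47.5 ± 7.89%. The part of these markers in the results was not tested.

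Transcripts above and below 0 differed in their 3' ends. Over coding genes under TMM scaling, the median GC content of the 3' UTR was 38.7% for genes above 0, 47.7% for genes below and 42.5% for all tested, and its median length was 1338, 1008 and 1121 bases. In 10 equal groups by 3' UTR GC content, the share above 0 went from 33.2% in the lowest to 14.7% in the highest and the share below 0 from 12.6% to 31.4%. The change across these groups was larger in control cells, whose median percentage left went from 65.6% in the lowest group to 82.3% in the highest, against 51.7% and 53.8% in knockdown. Coding sequences differed likewise, with a median GC content of 48.8% above 0 and 56.0% below.

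**Figure D5:**
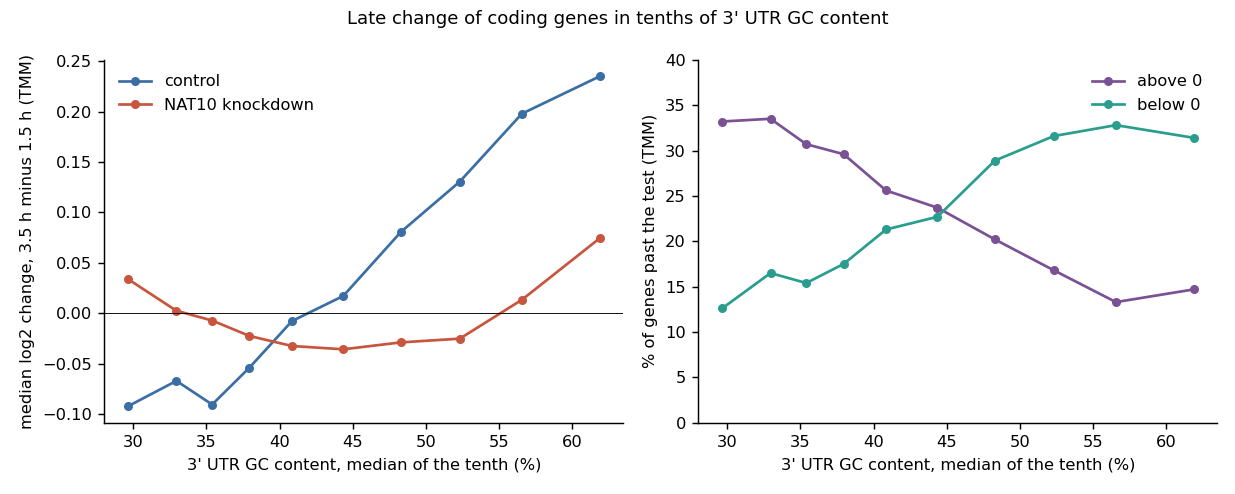
Coding genes in 10 equal groups by GC content of the 3' UTR (x axis, median of the group in percent). Left, median late change (log2, TMM scaling) in control and knockdown; right, share of genes past the test above 0 and below 0 under TMM scaling. The control line climbs from -0.09 to 0.23 and the knockdown line stays between -0.04 and 0.07.

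The Pumilio core TGTANATA of the windows shown above was present in the 3' UTR of 36.5% of genes above 0, 21% of those below and 27.4% of all. Since a longer UTR holds more of any motif, the genes were also divided into 3 equal groups by UTR length. The shares above and below 0 were 13.8% and 5.44% among the shortest, 33.1% and 14.2% in the middle and 56.5% and 46.7% among the longest. The AU-rich nonamer TTATTTATT of B3GNT2 was present in 9.43%, 6.84% and 8.52% of genes above, below and in all. Both motifs are rich in A and T, as are the UTRs of genes above 0, and the part of base composition in these shares was not tested. A motif was no guide to a single gene, since MT1X and MT1E hold the core and stand below 0, while ANXA1 and XBP1 hold neither motif and stand above it.

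The difference also varied with gene structure and type. The 282 coding genes with a single exon had a median of 50.7% left in control and 40.4% in knockdown, and 33.3% of them stood above 0 and 15.6% below. Genes with over 16 exons had 73.8% and 50.9% left, with 25.1% above and 28.4% below. Long intergenic noncoding RNAs, at lower counts, stood above 0 in 7.53% and below in 17.6% of 518 genes.

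The 0 h libraries, which the comparison does not use, showed a related order. Among genes whose late difference was above 0 under TMM scaling, knockdown exceeded control at 0 h for 14.2% and was below it for 27.3% (edgeR, TMM scaling), where 21.3% and 18.5% of all 15802 genes tested did so. Among genes whose late difference was below 0, 29.2% were higher and 16.6% lower, against 21.5% and 18.7% of all 15534 genes in both fits. The authors' deposited table holds half-lives fitted over 0 h to 3.5 h, so they share these libraries and add the early interval. In the authors' deposited table the half-life in hours was 1.63 in control and 6.32 in knockdown for ANXA1, 1.46 and 3.75 for VGF, and 0.867 and 1.96 for SOX2. In the authors' deposited table it was 11.6 and 3.56 for POU5F1 and 6.88 and 3.35 for ANP32B. Differences there can be smaller or turn, and the part of the early interval in this was not tested. HSPA8 had 1.72 and 1.46 and XBP1 had 1.22 and 1.38 in the authors' deposited table. Both had more left in knockdown from 1.5 h to 3.5 h. In the authors' deposited table PRDM14 had 1.06 and 1.19, ZNF48 1.03 and 1.13, LEO1 1.34 and 1.75 and RIOX1 0.909 and 1.18. MT2A and the MT1 genes named above had no control half-life in it.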

How the data were processed

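RNA of 12 libraries (3 per genotype at 1.5 h and 3.5 h) was compared. Per the labels' protocols total RNA was extracted with TRIzol and purified, ERCC RNA was added, and polyadenylated RNA was captured with oligo(dT) and sequenced on a BGISEQ instrument. What the authors deposited are raw counts of reads, by gene and by ERCC transcript. Tools listed in the submitters' processing notes are featureCounts 2.0.3, SAMtools 1.12, HISAT2 2.2.1 and fastp 0.21.1, with build hg38. Neither annotation release nor strand setting is stated in those sources, so overlapping, antisense and near-identical genes are uncertain. The authors also deposited a normalized signal per gene and library, from which only library factors were read, and half-lives with the log2 ratio of knockdown to control, a unit in hours with no error.

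The table held 61952 entries, 92 of them ERCC transcripts, of which 27 had at least 10 counts in every library. Of 61860 genes 58425 had a symbol and 58308 were in GENCODE v29, used for coordinates, gene types and UTRs. The filterByExpr function (minimum count 10) left 16225 genes. Counts were tested in R 4.3.3 with edgeR 4.0.16 (quasi-likelihood F test, 12 libraries, robust, Benjamini-Hochberg, threshold 0.05), with TMM factors or with summed ERCC counts as library sizes. The common biological variation (edgeR's BCV) came to 3.25% with TMM factors and 13.68% with ERCC library sizes, so ERCC calls are the less precise. SEs are the absolute log2 difference divided by the square root of F. Replicates differed by more than sampling noise (chi-square per degree of freedom 1.39 to 3.25). Tested on simulated data of 16225 genes for the genotype difference, TMM scaling recovered 90% of changes of 0.75 and 100% of 1.5 (log2), and ERCC scaling 36% and 97%. Changed genes had at least 5 CPM, and each gene varied independently with the common variation. The ERCC fit was given the library sizes behind the simulated counts. Spike-in error shared by all genes of a library was thus not simulated, and recovery under such error was not tested.

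The members, gene lists and tests were chosen with earlier results of these data known, so counts over lists are descriptions. Lists numbered 40. The text names NAT10, THUMPD1, POU5F1, SOX2, NANOG and ANP32B, the 10 largest differences in each direction under TMM scaling and the 6 largest under ERCC scaling, all 6 of which in each direction were among the former. These were taken among genes that passed, had at least 5 CPM, a symbol and no overlap between the 9 library differences of each genotype (36.0% of all genes did not overlap under TMM scaling and 21.9% under ERCC scaling). It also names the 2 members with the smallest p of each list described. All metallothionein members are given. A few genes that the rule names are not reported here. Alternatives were a fit to all 18 libraries, a block for replicate number, omission of each library, no filter, DESeq2 1.42.0 (Wald test and size factors), a minimum change of 1.5-fold, TMM over the ERCC transcripts and the authors' library factors.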

Additional observations from a re-analysis of the deposited data

Results flagged for a closer look

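The following genes had a late change that differed between control and knockdown cells by the test of the difference itself (edgeR, interaction contrast, adjusted over all genes) under both scalings, with 3 libraries a group. Below 0 under TMM scaling stood MT1G at -2.34, MT1M at -2.32, MT1X at -2.28 and MT1E at -1.86, all metallothioneins. SYT12 stood at -2.07, DNHD1 at -1.83, MEDAG at -1.75, RAB37 at -1.74 and SCN4A at -1.73 on the log2 scale. ANP32B at -0.31 and POU5F1 at -0.26 were much smaller differences. Above 0 stood ANXA1 at 2.68, B3GNT2 at 2.4, XBP1 at 2.26, PRDM14 at 2.24 and VGF at 2.15. NGDN stood at 2.07, ZNF48 at 2.06, TENT5B at 2.02, LEO1 at 1.96 and RIOX1 at 1.95. Under ERCC scaling the call for POU5F1 rests on single libraries, as given in the report. Groups of 3 libraries were not tested for a library that stands apart.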

How the results depend on the processing

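No named gene whose difference passed reversed it under the alternatives run for single genes, which are all but the minimum change of 1.5-fold and the choice of ERCC transcripts for the summed ratio. Over the 96 genes named by the rule 13 of the values under TMM scaling and 75 under ERCC scaling lost the call, while 4 and 19 gained it. Counts moved by over 1.5 times as follows, and the cause was not tested unless fewer genes or samples entered. In the fit to all 18 libraries the genotype difference below 0 was called for 1911 genes under TMM and 3139 under ERCC scaling, and the knockdown late change above 0 (TMM) for 1407. With no filter 2293 stood below 0 (TMM), and 4 genes were higher at 3.5 h in knockdown (ERCC), where 0 were with the filter. A minimum change of 1.5-fold left 561 above and 363 below (TMM) and 40 above and 690 below (ERCC). The replicate numbers are not said to mark a batch, and same-numbered libraries correlated between -0.27 and 0.21 after removal of group means, so they do not pair the libraries. With the replicate block, counts below 0 under ERCC scaling were 5 for cytosolic ribosomal proteins, 13 for oxidative phosphorylation and 10 for glycolysis. With it 172 genes stood above 0 and 3018 below under ERCC scaling, 3335 and 3370 under TMM scaling, and the summed ratio had an exact permutation p = 0.2 over 20 assignments.

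DESeq2's Wald test called 2955 above and 2830 below (TMM factors) and 260 and 4770 (ERCC), and DESeq2's size factors gave 3700 and 3088. TMM over the ERCC transcripts gave 241 and 5170, and the authors' library factors 225 and 4153.

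Leaving out 1 library at a time, the TMM counts ranged from 3224 to 3379 above and 3149 to 3354 below. Under ERCC scaling they ranged from 181 to 334 above, and from 2683 (without control 1.5 h replicate 2) to 7203 (without knockdown 1.5 h replicate 2) below. The report gives the other libraries with such an effect. The late change in control (ERCC) ranged from 322 to 609 above and 6179 to 8986 below, and in knockdown from 0 to 2 above and 14438 to 15328 below. Under TMM scaling it ranged from 5173 to 5628 and 4574 to 4941 in control and from 2283 to 2800 and 2528 to 3044 in knockdown. The summed ratio ranged from -0.63 to -0.39, with exact permutation p-values of 0.015 to 0.11. With 3 libraries a group, depth limits the genes of low count most: 45635 genes were left out as too low.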
